A study of Mus musculus with 6 samples.

Results

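The CC chemokines described here are 10 ligand genes, Ccl2, Ccl4, Ccl5, Ccl6, Ccl7, Ccl8, Ccl9, Ccl20, Ccl25 and Ccl28, taken by gene symbol from the 23725 gene rows of an RNA sequencing table of mouse colonic epithelial cells. All 10 had a row. The cells were enriched on a Percoll density gradient from C57BL/6J mice, in 3 libraries labelled Nr3c1 knockout and 3 labelled wild type. The knockout animals have the genotype label B6-Cg-Nr3c1-Vil-Cre/ERT2 (Nr3c1IEC-/-): Nr3c1 encodes the glucocorticoid receptor, and the tamoxifen-activated Cre/ERT2 recombinase is driven by the villin promoter, which is active in intestinal epithelium. The protocol given for all 6 libraries has tamoxifen injected on 5 consecutive days and cells taken 7 days after the first injection. The labels give no age, and they do not say whether wild-type animals carried the transgene. Nothing in them says that the libraries of a group came from separate animals, so the tests below measure the spread between these libraries.

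Chemokines are small secreted proteins that steer migrating leukocytes through G protein-coupled receptors. In CC chemokines the first cysteines of the mature protein lie next to each other, and their receptors are named Ccr. In the gut, Ccl20, Ccl25 and Ccl28 are made by epithelial cells: Ccl20 attracts Ccr6-bearing lymphocytes and dendritic cells, Ccl25 attracts Ccr9-bearing lymphocytes, chiefly in the small intestine, and Ccl28 attracts IgA-producing plasma cells through Ccr10. Ccl2, Ccl7 and Ccl8 are monocyte chemoattractants, Ccl4 and Ccl5 attract T cells and monocytes, and Ccl6 and Ccl9 are rodent ligands of Ccr1.

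The family can be recognised in its coding sequence, so 30 coding bases around the adjacent cysteines of each gene are shown, read from GENCODE mouse transcripts on GRCm38. Capitals mark the codons of the adjacent cysteines.
Ccl20: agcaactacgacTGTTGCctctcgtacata
Ccl25: gcctttgaagacTGCTGCctgggttaccag
Ccl28: atggcctccagcTGTTGCactgaggtgtct
Ccl6: acttcttcagacTGCTGCttctcttatgcc
Ccl9: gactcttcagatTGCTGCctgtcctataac
Ccl2: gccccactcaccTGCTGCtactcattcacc
Ccl7: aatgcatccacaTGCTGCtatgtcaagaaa
Ccl8: gctccagtcaccTGCTGCtttcatgtacta
Ccl4: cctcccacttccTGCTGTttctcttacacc
Ccl5: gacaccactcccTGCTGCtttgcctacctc
The pair is written TGCTGC in 7 genes, TGTTGC in Ccl20 and Ccl28, and TGCTGT in Ccl4. Ccl7 and Ccl8 shared 64.7% of aligned coding bases and Ccl6 and Ccl9 shared 64.6%. Their longest runs of identical transcript bases were 17 and 25. The longest such run between Ccl2 and Ccl7 was 23. On chromosome 11 lie 7 of the genes, Ccl2, Ccl4, Ccl5, Ccl6, Ccl7, Ccl8 and Ccl9.

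The 250 bases upstream of the RefSeq start site (GRCm38.p6) are shown for the epithelial gene that rose, Ccl20 (chr1:83116516-83116765, plus strand), for the gene that fell, Ccl6 (chr11:83593088-83593337, minus strand), and for its neighbour Ccl9 (chr11:83578637-83578886, minus strand). Capitals mark 3 motifs searched on both strands: the NF-kB consensus, the glucocorticoid receptor half-site AGAACA and the TATA box TATAAA.
Ccl20: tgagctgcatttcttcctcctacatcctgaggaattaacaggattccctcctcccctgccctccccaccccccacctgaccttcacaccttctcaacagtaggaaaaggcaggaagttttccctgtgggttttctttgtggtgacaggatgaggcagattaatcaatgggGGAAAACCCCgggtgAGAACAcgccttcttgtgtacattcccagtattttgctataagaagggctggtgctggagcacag
Ccl6: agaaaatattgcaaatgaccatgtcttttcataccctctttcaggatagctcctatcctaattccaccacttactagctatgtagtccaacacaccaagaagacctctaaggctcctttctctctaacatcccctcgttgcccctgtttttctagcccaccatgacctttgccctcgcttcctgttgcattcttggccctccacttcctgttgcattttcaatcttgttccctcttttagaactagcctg
Ccl9: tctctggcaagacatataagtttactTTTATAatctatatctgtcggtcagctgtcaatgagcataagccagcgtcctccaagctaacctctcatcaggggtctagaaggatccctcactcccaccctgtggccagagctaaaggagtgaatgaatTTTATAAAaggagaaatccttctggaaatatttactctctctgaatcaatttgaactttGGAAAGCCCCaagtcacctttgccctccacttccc
Ccl20 held 1 NF-kB match, at -80 to -71 from the start site, and 1 AGAACA, at -65 to -60. Ccl9 held 1 NF-kB match, at -35 to -26, and 3 TATA matches, 2 of which overlap. Ccl6 held none of the 3 motifs in these 250 bases. Among 32851 promoter windows of this length, 7.25% held the NF-kB consensus, 16.1% held AGAACA and 12.4% held TATAAA. A match describes letters only. Promoter sequences were at hand for 6 of the 10 genes. Among these 6, the NF-kB consensus was found only in Ccl20 and Ccl9, and AGAACA only in Ccl20. Ccl8 and Ccl25 each held 1 TATAAA.

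Before the results, 1 library needs a remark. Nr3c1 had 145, 123 and 175 normalized reads in the knockout libraries, against 1120, 967 and 197 in wild type replicates 1, 2 and 3. At this gene the library labelled wild type replicate 3 resembled the knockout libraries and contradicts its label. Over all tested genes, the first principal component (77.0% of the variance) put it at 37.2. Wild type replicates 1 and 2 lay at 65.0 and 61.7, and the knockout libraries at -80.2, -37.5 and -46.2. It was thus on the wild-type side, though nearest to the knockout libraries. Whether its label is right was not tested. Results are also given without wild type replicate 3 where that changes them. The Nr3c1 change itself (log2 -2.03, limma adjusted p = 0.0372) did not hold without any 1 of the other 5 libraries (adjusted p = 0.0631 to 0.125). Reads from undeleted exons may be counted. Recovered reads numbered 10089313 to 12030844 per library.

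The CC chemokines did not move as a block. Ccl20, Ccl4 and Ccl7 rose in the knockout libraries, Ccl6 fell, and Ccl2, Ccl5, Ccl9, Ccl25 and Ccl28 did not pass the threshold. Ccl8 was too low to be tested. Of the 9 tested genes 3 were thus raised, where 15.0% of all 12837 tested genes were, and 1 was lowered, against 15.4%, or 4 of 9 in either direction, against 30.5%. Ccl4, Ccl7 and Ccl20 reached the filter (at least 10 normalized reads in at least 3 libraries) through the knockout libraries, so such genes could hardly be tested without differing. The median log2 change of the 9 was 1.07, beside 0.01 over all tested genes. Changes are given as knockout minus wild type of log2(value + 1), and adjusted p-values are from limma across all tested genes.

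**Figure D1:**
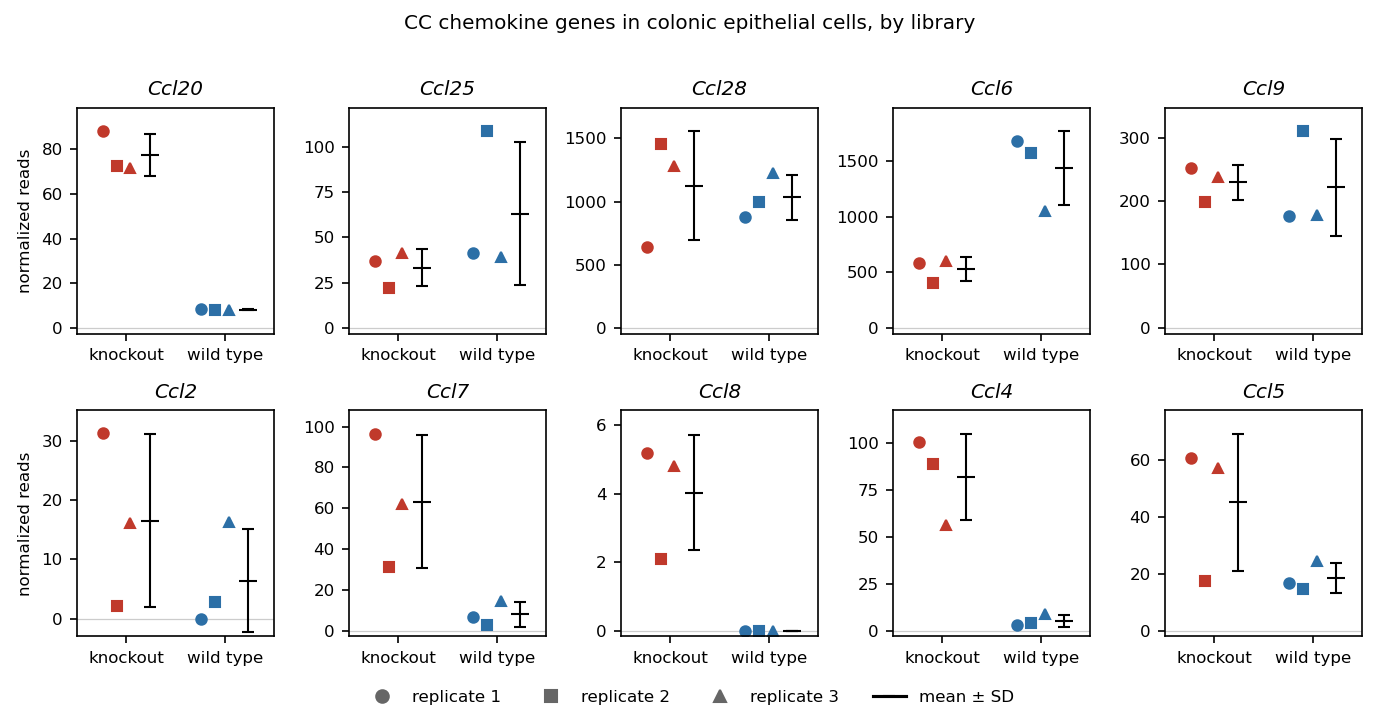
Normalized reads of the 10 CC chemokine genes in each library, with knockout libraries in red on the left of each panel and wild-type libraries in blue on the right; the black bar is the mean ± SD of 3 libraries. Ccl20, Ccl7, Ccl8 and Ccl4 were higher in every knockout library than in any wild-type library, Ccl6 was lower in every one, and the other 5 genes overlapped.

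Among the epithelial ligands, Ccl20 had 88.1, 72.4 and 71.6 normalized reads in the knockout libraries, against 8.5, 7.8 and 8.2 in the wild-type libraries. The groups lay far apart, and the wild-type values, replicate 3 included, were nearly alike. The wild-type values rest on only 8, 8 and 9 reads, so few that their closeness says little about the spread of the level. The mean was 77.4 ± 9.27 in knockout and 8.17 ± 0.33 in wild type (SD, n = 3 each), a log2 change of 3.09 (SE 0.24, 95% interval 2.53 to 3.64, limma adjusted p = 0.000445). Its gene spans chr1:83116766-83119167 in RefSeq (GRCm38.p6). Its promoter is the one printed above with an NF-kB match and an AGAACA half-site.

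Ccl28 had 640.5, 1456 and 1281 normalized reads in the knockout libraries, against 877, 998 and 1222 in the wild-type libraries. The groups overlapped fully, and knockout replicate 1 was lowest of all 6. The log2 change was 0.05, with a 95% interval of -0.63 to 0.74 (limma adjusted p = 0.902). Ccl25 had 36.7, 21.7 and 41.1 in the knockout libraries, against 41.4, 108.5 and 39.2 in the wild-type libraries. Only wild type replicate 2 stood above the others, and without it the log2 change was -0.32 (adjusted p = 0.541), against -0.79 with it (interval -1.80 to 0.22, adjusted p = 0.196).

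Ccl6 had the highest mean level of the 10 genes per kilobase of transcript in both groups, using the length of 1 GENCODE transcript per gene. In knockout this order rests on the transcript chosen (1440 bases for Ccl6, 3740 for Ccl28), since Ccl28 had more reads in every knockout library. Ccl6 had 582, 405 and 598 normalized reads in the knockout libraries, against 1673, 1569 and 1052 in the wild-type libraries. Every knockout library was below every wild-type one, and wild type replicate 3 was the lowest of its group. The mean was 528 ± 107 in knockout and 1431 ± 333 in wild type, a log2 change of -1.43 (SE 0.22, limma adjusted p = 0.00387), and -1.64 without wild type replicate 3.

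Ccl9, also a Ccr1 ligand, lies 9249 bases from Ccl6 on the same strand. It had 252, 199 and 238 normalized reads in the knockout libraries, against 176, 310.0 and 178 in the wild-type libraries. The groups overlapped, with a log2 change of 0.10 (interval -0.45 to 0.64, limma adjusted p = 0.774). The ratio of Ccl6 to Ccl9 was 2.31, 2.04 and 2.51 in the knockout libraries, against 9.49, 5.06 and 5.92 in the wild-type libraries. These ratios did not overlap, and their means were 2.29 ± 0.24 and 6.83 ± 2.35. The two-sided exact permutation test of the log2 ratio gave p = 0.1, the smallest p that 3 against 3 libraries allow, for a ratio chosen after its values were seen.

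**Figure D2:**
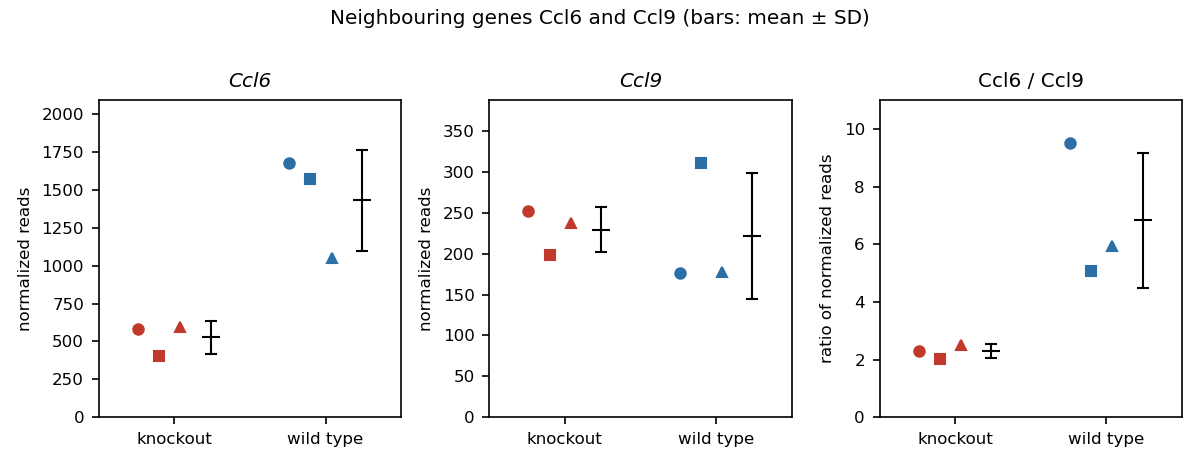
Normalized reads of the neighbouring genes Ccl6 and Ccl9 and the ratio of Ccl6 to Ccl9, by library, with knockout on the left; bars are mean ± SD of 3 libraries. Ccl6 and the ratio separated the groups, with ratios of 2.04 to 2.51 in knockout and 5.06 to 9.49 in wild type, while Ccl9 overlapped.

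The monocyte chemoattractant genes were low in both groups. Ccl7 had 96.4, 31.0 and 62.1 normalized reads in the knockout libraries, against 6.4, 2.9 and 14.6 in the wild-type libraries. The groups did not overlap, and the log2 change was 2.92 (SE 0.59, limma adjusted p = 0.00987). Ccl2 had 31.4, 2.1 and 16.2 in the knockout libraries, against 0.0, 2.9 and 16.4 in the wild-type libraries. The groups overlapped, and the log2 change of 1.55 had an interval of -1.21 to 4.30 (limma adjusted p = 0.342). It was 2.59 without wild type replicate 3 (adjusted p = 0.129) and 0.53 without wild type replicate 1 (adjusted p = 0.754). Ccl8 had 5, 2 and 5 reads in the knockout libraries and 0 in each wild-type library. With the wild-type group set at a floor of 3 counts, the knockout reads were 4.10-fold higher. The floor covers counting error of the wild-type group only, not that of the few knockout reads, so 4.10 is no lower bound. With no filter on low values the limma adjusted p of Ccl8 was 0.00723, where 11.3% of 18057 genes were raised. Ccl8 entered that test through its knockout reads alone, so it could hardly be tested there without differing.

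Of the genes Ccl4 and Ccl5, Ccl4 had 100.6, 89.0 and 56.3 normalized reads in the knockout libraries, against 3.2, 3.9 and 9.1 in the wild-type libraries. It had the largest log2 change of the 9 tested genes, 3.77 (SE 0.41, 95% interval 2.80 to 4.73, limma adjusted p = 0.00124). Ccl4 cannot be fully separated from Ccl3, which lies on the opposite strand: their RefSeq spans share 755 bases and the libraries are non-stranded. Ccl5, which T and NK cells make in quantity, had 60.8, 17.6 and 57.3 in the knockout libraries, against 17.0, 14.7 and 24.6 in the wild-type libraries. Knockout replicate 2 lay within the wild-type range, and the log2 change was 1.07 (SE 0.49, adjusted p = 0.128). Without that library it was 1.64 (adjusted p = 0.0122).

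Groups without overlap were common in this comparison, holding for 50.7% of the tested genes. Of the 10 chemokine genes, 4 (Ccl4, Ccl7, Ccl8 and Ccl20) lay wholly above the wild-type libraries, where 25.2% of tested genes did, and 1 (Ccl6) wholly below, where 25.5% did. Within the knockout group, replicate 2 was the lowest library for 7 of the 10 genes and replicate 1 the highest for 7.

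Per kilobase of transcript, the order of levels differed between the groups. In the knockout libraries Ccl6 (367 ± 74.4 normalized reads per kilobase) and Ccl28 (301 ± 115) overlapped at the top, followed by Ccl4 (124 ± 34.8), Ccl20 (97.4 ± 11.7), Ccl5 (85.0 ± 45.1), Ccl7 (78.9 ± 40.8) and Ccl9 (76.3 ± 9.13), neighbours among which overlapped. Ccl25 (31.3 ± 9.58) lay below Ccl9 without overlap, with Ccl2 at 20.4 ± 18.1 and Ccl8 at 7.88 ± 3.35. In the wild-type libraries Ccl6 (994 ± 231) stood above Ccl28 (276 ± 46.9) without overlap, and Ccl28 above Ccl9 (73.6 ± 25.6). Ccl9, Ccl25 (59.6 ± 37.3) and Ccl5 (35.2 ± 9.76) overlapped with their neighbours. Below Ccl5 without overlap came Ccl20 (10.3 ± 0.42), Ccl7 (9.93 ± 7.47), Ccl4 (8.18 ± 4.89) and Ccl2 (7.92 ± 10.8), which overlapped, and Ccl8 had no read.

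The reads of the 10 genes summed to 1893, 2295 and 2426 in the knockout libraries, against 2802, 3019 and 2564 in the wild-type libraries. Ccl6 supplied 30.7%, 17.6% and 24.6% of them in knockout and 59.7%, 52.0% and 41.0% in wild type. The 7 genes other than Ccl6, Ccl28 and Ccl9 supplied 22.1%, 10.3% and 12.8% in knockout and 2.73%, 4.66% and 4.37% in wild type.

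Of 14 other CC ligand genes looked up, 10 had a row and 2 passed the filter, Ccl3 through the knockout libraries alone and Ccl27a through the wild-type ones alone. Ccl3, a Ccr1 ligand and the neighbour of Ccl4, rose, with 97.5, 90.0 and 49.6 normalized reads in the knockout libraries, against 8.5, 2.0 and 7.3 in the wild-type libraries (log2 change 3.64, limma adjusted p = 0.00280). Ccl27a, a Ccr10 ligand like Ccl28, fell, with 2.1, 9.3 and 3.8 in knockout and 20.2, 16.6 and 14.6 in wild type (log2 change -1.75, adjusted p = 0.0346). That call was lost without any 1 of the libraries except knockout replicate 2, with adjusted p-values of 0.0653 to 0.112. The Ccr4 ligands were under the filter: Ccl22 had 34.6, 4.1 and 9.5 in knockout, against 0.0, 0.0 and 3.6 in wild type, and Ccl17 had 10.5, 2.1 and 4.8, against 1.1, 2.0 and 0.0. Ccl1, Ccl11, Ccl12 and Ccl24 had at most 6.3 in any library, and Ccl19 and Ccl26 had no read.

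Among the 11 CC receptor genes, 4 were tested, 2 rose and 0 fell, beside 15.0% and 15.4% over all tested genes. Of the 4, 2 (Ccr2 and Ccr7) were testable only through the knockout libraries. Ccr1, a receptor of several CC ligands, Ccl3, Ccl6 and Ccl9 among them, had 127, 44.5 and 63.0 normalized reads in the knockout libraries. It had 14.9, 11.7 and 33.7 in the wild-type libraries (log2 change 1.91, limma adjusted p = 0.0235). Ccr7, a lymph node homing receptor, had 52.4, 10.3 and 24.8, against 4.2, 2.0 and 3.6 (log2 change 2.59, adjusted p = 0.0161). Ccr1 missed the threshold without knockout replicate 3 (adjusted p = 0.0556) and without either of wild type replicates 1 and 2 (0.0836 and 0.0816), and Ccr7 without wild type replicate 2 (0.0590). Ccr2, the Ccl2 and Ccl7 receptor, had 13.6, 12.4 and 11.5 in knockout, against 0.0, 3.9 and 9.1 in wild type (limma adjusted p = 0.111). It passed without the library labelled wild type replicate 3 (adjusted p = 0.0444).

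The receptors of the epithelial ligands were near the limit of detection. Ccr6 had at most 1.0 normalized reads in any library, Ccr9 had 6.3, 4.1 and 8.6 in knockout and 3.2, 2.9 and 4.6 in wild type, and Ccr10 had 1.0, 5.2 and 0.0, against 7.4, 7.8 and 2.7. Ccr3, Ccr4 and Ccr8 did not exceed 2.7 in any library, and Ccr1l1 had no read. Ccrl2, an atypical receptor that does not signal to migration, rose to 494, 82.8 and 159 in knockout, against 20.2, 36.2 and 72.9 in wild type (log2 change 2.28, limma adjusted p = 0.0379), a call lost without wild type replicate 1 or 2 or knockout replicate 1 or 3 (adjusted p = 0.0604 to 0.124). The scavenger receptor gene Ackr4 had 43.0, 72.4 and 47.7 in knockout, against 42.5, 40.1 and 56.5 in wild type (adjusted p = 0.579). Ackr2 had 2.1, 0.0 and 1.9, against 9.6, 2.9 and 7.3, and Ackr1 had no read.

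**Figure D3:**
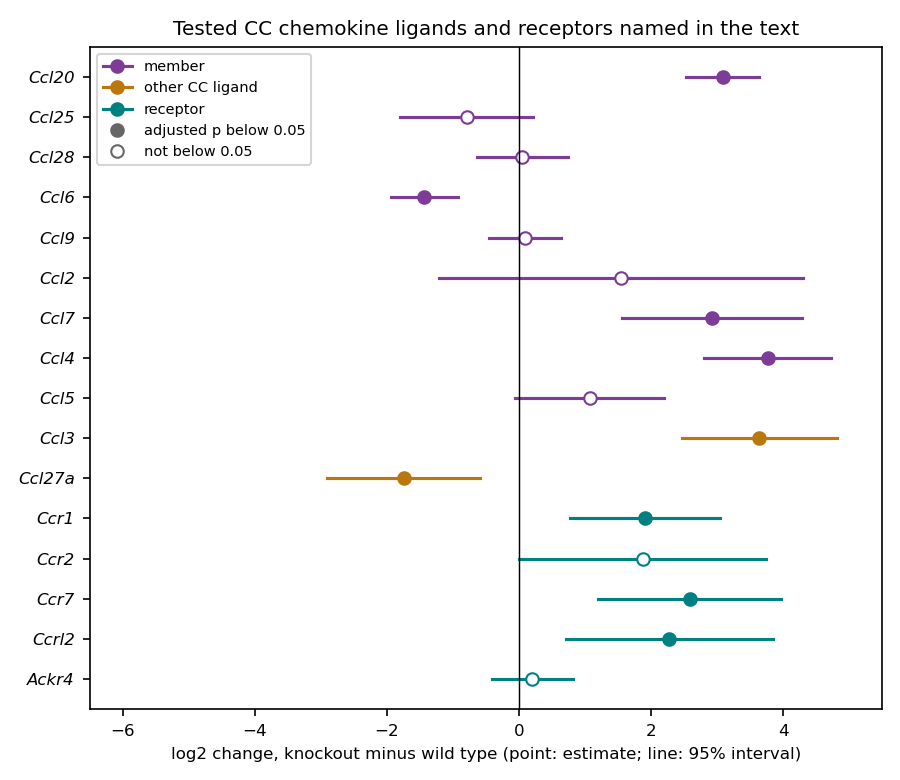
Log2 change, knockout minus wild type, of the tested CC chemokine ligand and receptor genes named in the text, with limma 95% intervals as lines; filled points passed an adjusted p of 0.05. Ccl20, Ccl7, Ccl4, Ccl3, Ccr1, Ccr7 and Ccrl2 lie to the right of 0 and Ccl6 and Ccl27a to the left.

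Genes of the signals known to induce CC chemokines rose in part. Of 18 cytokine and receptor genes, 13 were tested, 6 rose and 1 fell, where 15.0% and 15.4% of all tested genes did. The cytokine genes Tnf (1683.6, 586.7 and 1042.5 normalized reads in knockout, against 184.7, 196.5 and 247.7 in wild type) and Il1a (499, 218 and 290.2, against 22.3, 37.2 and 70.1) had log2 changes of 2.27 and 2.99 (limma adjusted p = 0.00374 and 0.00347). Il22ra1, a subunit of the interleukin-22 receptor, was 933.0, 879.5 and 1102.7 in knockout, against 458.5, 482.1 and 518.2 in wild type (adjusted p = 0.00174). Il1r1, the interleukin-1 receptor gene, fell to 29.4, 33.1 and 36.3 in knockout, against 270.7, 178.9 and 178.5 in wild type (log2 change -2.61, adjusted p = 0.000562). The other genes that rose, named after their values were seen, were Il1b, Tnfrsf1a and Tnfrsf1b. Tnfrsf1a and Tnfrsf1b missed the threshold when wild type replicate 1 or 2 was left out (limma adjusted p = 0.0524 to 0.0611). Il17a, Il22 and Ifng reached at most 28.3 in a knockout library and were at 0 in wild type.

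Of 14 NF-kB subunit and regulator genes, 4 rose and 0 fell, beside 15.0% and 15.4% over all tested genes. They were Bcl3 (797 ± 288 in knockout and 362 ± 75.2 in wild type), Nfkbib (490.3 ± 63.4 and 331 ± 41.3), Nfkbie (57.6 ± 10.2 and 32.1 ± 7.37) and Tnfaip3 (7260.1 ± 2316 and 3706 ± 1182), all of which encode inhibitors or modulators of the pathway, with limma adjusted p-values of 0.0173 to 0.0461. Leaving out wild type replicate 1 or 2 left 0 raised, and leaving out knockout replicate 1 or 3 left 1. Rela, a subunit named after its values were seen, was 859 ± 186 in knockout and 1232 ± 157 in wild type (adjusted p = 0.0515), and passed with TMM scaling, with quantile normalization, with DESeq2 and without knockout replicate 3 (adjusted p = 0.0250 to 0.0462).

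Of 7 genes acting on chemokine mRNA stability, Zfp36l2 and Zfp36l1, which encode RNA-binding proteins that promote mRNA decay, fell, where 15.4% of all tested genes did. Zfp36l2 had 1256, 1660 and 1751 normalized reads in knockout, against 3040, 3964 and 2904 in wild type (log2 change -1.09, limma adjusted p = 0.00442), and Zfp36l1 had 398, 465 and 501, against 866, 944 and 647 (log2 change -0.84, adjusted p = 0.00953). Zfp36 itself, encoding tristetraprolin and also named after its values were seen, was 13065, 11732 and 13135 in knockout, against 18424, 15862 and 12437 in wild type (adjusted p = 0.243). Of 7 genes of ligand trimming and heparan sulfate presentation 1 rose, a share near the 15.0% of all tested genes. It was Ext1 (414.1, 467.7 and 516.5 in knockout, against 321.6, 268.9 and 368.8 in wild type, limma adjusted p = 0.0313), a call lost without knockout replicate 2 or 3 or wild type replicate 1 or 2 (adjusted p = 0.0658 to 0.107). Of 6 tested gut homing and secretory IgA genes 1 rose, again near that share, and 4 of the 6 reached the filter in all knockout libraries but not in all wild-type ones. It was Itgb7, an integrin subunit of gut-homing lymphocytes (27.6 ± 8.55 in knockout and 7.98 ± 5.07 in wild type, limma adjusted p = 0.0273), a call lost without knockout replicate 1 or 3 or wild type replicate 1 or 2 (adjusted p = 0.0712 to 0.0848). Pigr, the epithelial transporter of IgA, also named after its values were seen, was 7547, 21643 and 23432 in knockout and 32738, 37808 and 30978 in wild type (adjusted p = 0.0752).

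Levels of other cell types' markers differed between the groups as well, in both directions. Summed over 13 listed genes, monocyte and macrophage markers had 1713 to 3951 normalized reads in the knockout libraries and 607 to 1259 in the wild-type libraries. Of 12 tested, 7 rose, where 15.0% of all tested genes did, and 3 of the 12 reached the filter in all knockout libraries but not in all wild-type ones. Csf1r and C1qb, among the 7, missed the threshold without knockout replicate 1 or 3 or wild type replicate 1 or 2 (limma adjusted p = 0.0715 to 0.108). Neutrophil markers summed to 462 to 965 in knockout and 90.2 to 131 in wild type. The 5 that were tested rose, but 3 of them (Ltf, Retnlg and Mmp8) were testable only through the knockout libraries, and Csf3r missed the threshold without wild type replicate 1 (adjusted p = 0.0519). Under the filter, Mpo and Elane, which mark immature neutrophils, were at 0 in every library. Ngp and Camp, also under the filter, were at 0 in every wild-type library. In knockout Ngp had 5.2, 98.3 and 2.9 normalized reads, most of them in replicate 2, and Camp had 0.0, 5.2 and 0.0. The 4 pan-leukocyte genes summed to 457 to 970 in knockout and 119 to 214 in wild type, and the 4 rose, 1 of them (Cd52) with fewer than 3 wild-type libraries at the filter.

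The eosinophil and mast cell list summed to 60.8 to 107 in knockout and 261 to 456 in wild type, without overlap. Kit, the stem cell factor receptor gene and the only one of the 8 tested, supplied most of it and fell, with 32.5, 95.2 and 84.0 in knockout, against 337.5, 449.8 and 253.2 in wild type (log2 change -2.38, limma adjusted p = 0.00570). The other 7 genes had at most 8.4 in any library, so the lower knockout sums came from Kit. Of the 7, Cpa3 (6.3, 2.1 and 1.0 in knockout) and Mcpt4 (5.2, 2.1 and 1.9) went the other way, with 0 in every wild-type library. The remaining 5 overlapped.

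Of 4 tested T cell, intraepithelial lymphocyte and NK genes, 0 passed by limma, edgeR or DESeq2 and 0 had an unadjusted limma p under 0.05, although Cd7 passed without knockout replicate 2 (limma adjusted p = 0.0434). The list summed to 117 to 232 in knockout and 90.0 to 157 in wild type, with overlap. Of 5 tested fibroblast genes 1, Dcn, rose, where 15.0% of all tested genes did. Dcn missed the threshold without knockout replicate 1 or 3 or wild type replicate 1 or 2 (limma adjusted p = 0.0732 to 0.113). Col3a1 passed without knockout replicate 2 (limma adjusted p = 0.0354) or wild type replicate 3 (0.0456). The fibroblast sums were 382 to 2154 in knockout and 180 to 553 in wild type. Endothelial genes summed to 20.7 to 40.1 in knockout and 46.0 to 48.3 in wild type. Neither of the 2 tested passed, but Pecam1, lower in knockout, did with quantile normalization (limma adjusted p = 0.0447) and without knockout replicate 3 (0.0347). The B cell genes Cd79a and Ms4a1 did not exceed 7.6 in any library. Of the 2 tested B cell and plasma cell genes, Jchain and Sdc1, 0 passed (limma adjusted p = 0.132 and 0.412). Jchain had 115.3, 43.5 and 171.8 in knockout, against 38.2, 7.8 and 71.0 in wild type, with overlap. Cd79b and Mzb1 were higher in every knockout library but did not exceed 2.1.

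Epithelial markers had far more reads, 268181 to 306370 in knockout and 244051 to 286966 in wild type, about as the labelled cell type would have, with Krt8 the largest part. Within the list 2 of 8 genes rose and 1 fell, where 15.0% and 15.4% of all tested genes did, so these few calls do not set the list apart. Krt20, a keratin of differentiated surface cells, had 35312, 30515 and 30047 in knockout, against 14008, 15341 and 19392 in wild type (log2 change 0.99, limma adjusted p = 0.00740). Vil1, the villin gene whose promoter drives the Cre, was 15195 ± 1038 in knockout and 10075 ± 490.5 in wild type (adjusted p = 0.0134), and missed the threshold without wild type replicate 1 or 2 (0.0643 and 0.0671). Cdx2, an intestinal transcription factor gene, was 1951 ± 235 in knockout and 3093 ± 637 in wild type (adjusted p = 0.0275), and missed it without knockout replicate 3 or wild type replicate 1 or 2 (0.0777 to 0.0986).

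Knockout replicate 2 was the lowest knockout library for Ccl2, Ccl5, Ccl6, Ccl7, Ccl8, Ccl9 and Ccl25. It was also lowest for the macrophage, pan-leukocyte, lymphocyte, fibroblast and endothelial sums. The neutrophil and epithelial sums were lowest in replicate 3. Replicate 2 was the highest knockout library for the eosinophil and mast cell sum (107) and the B cell and plasma cell sum (4128, of which Sdc1 gave 4076.7). The part of these cells in the chemokine changes was not tested. In these bulk libraries more cells of a type and more RNA per cell cannot be told apart.

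**Figure D4:**
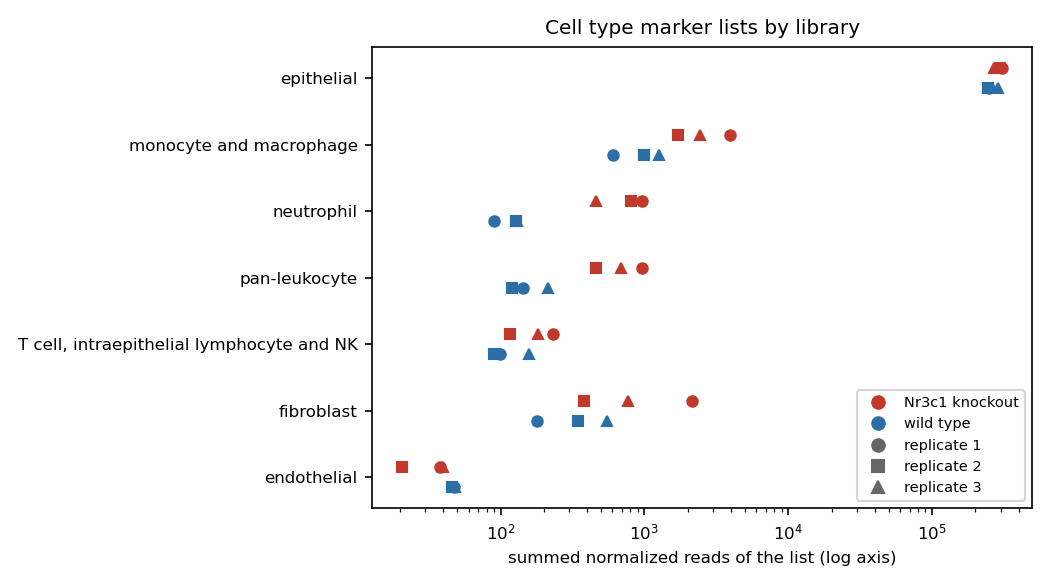
Summed normalized reads of 7 marker lists in each library on a log axis, with knockout libraries (red) above wild-type libraries (blue) in each row. Macrophage, neutrophil and pan-leukocyte sums were higher in every knockout library and endothelial sums lower, while the lymphocyte and fibroblast sums overlapped.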

How the data were processed

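RNA was sequenced from 3 Nr3c1 knockout and 3 wild-type libraries, grouped by their genotype labels. Per the labels' protocols, non-stranded TruSeq mRNA libraries were made, and the submitters' processing notes name FastQC, TopHat, DESeq2 and mm10 without versions. The sources used here do not give the read counter. Values as deposited are a normalized signal: counts per gene, scaled by the authors with a single factor for each library. In each column 100% of values were whole multiples (within 0.001) of 1 step, which gave back the reads. Entrez numbers of 23666 rows matched a RefSeq symbol (GRCm38.p6).

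Genes with at least 10 in 3 or more of the 6 libraries (12837) were tested in limma 3.58.1 (R 4.3.3, intensity-dependent prior) on log2(value + 1), which understates changes of low genes, with Benjamini-Hochberg adjustment and a threshold of 0.05. Means and SDs are of normalized values. The genes named were the 10 members, the other CC ligands and receptors (some results are not reported here), and up to 4 genes per list with the smallest adjusted p. Members and lists were chosen with earlier results of these data known. Alternatives were pseudocounts of 0.5 and 5, no filter, a filter at 50, TMM, quantile normalization, edgeR 4.0.16, DESeq2 1.42.0 and leaving out each library. The procedure was tested on simulated data. Replicate numbers follow accession order. Intervals and floors cover counting error only where they rest on reads.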

Additional observations from a re-analysis of the deposited data

How the results depend on the processing

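The calls of Ccl20, Ccl4, Ccl6 and Ccl7 kept their direction and stayed past the threshold under every alternative that tested them, with adjusted p-values up to 0.00397, 0.00738, 0.0211 and 0.0397. A filter at 50 removed Ccl7, Ccl2, Ccl5 and Ccl25 from the test. The members raised numbered 2 to 4 and those lowered 1 throughout. Leaving out 1 library, the log2 change ranged from 0.77 to 1.64 for Ccl5, past the threshold only without knockout replicate 2, from -0.040 (without wild type replicate 1; -0.03 without replicate 3) to 0.37 for Ccl9 and from -0.17 (without knockout replicate 2; -0.08 without knockout replicate 3, -0.06 without wild type replicate 1) to 0.42 for Ccl28, neither of which passed. Other CC ligands raised numbered 2 with no filter and 0 at a filter of 50, and those lowered 0 at 50. With 1 library left out, 1 of them was raised each time and 0 to 1 lowered. A filter at 50 left 0 receptors raised and 0 homing genes raised. With 1 library left out, receptors raised numbered 0 to 4, atypical receptors 0 to 1, NF-kB genes 0 to 4, presentation genes 0 to 1, homing genes 0 to 2 and mRNA stability genes 0 to 1, and NF-kB genes lowered 0 to 1. Inducing cytokine and receptor genes raised numbered 4 to 9 over all alternatives. NF-kB genes lowered were 1 with TMM, 1 with quantile normalization and 1 with DESeq2, and homing genes lowered 1 with DESeq2. Over all genes limma called 3910, edgeR on the recovered reads 3893 and DESeq2 4164, while leaving out wild type replicate 1 or 2 left 1923 or 1960 limma calls. Beyond fewer genes or libraries tested, the cause was not tested. No paired analysis was possible because the numbers of the replicates only follow accession order and pair no libraries. Depth limits what can be said of Ccl8, Ccl2 and the receptors of the epithelial ligands, which had few reads.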
